A study of Mus musculus with 6 samples.

Results

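The genes described here are the lysosomal cathepsins *Ctsa*, *Ctsb*, *Ctsc*, *Ctsd*, *Ctsh*, *Ctsl*, *Ctso*, *Ctss* and *Ctsz*, together with legumain (*Lgmn*). They were chosen by name in the gene tables of 6 RNA-seq libraries, and 9 of the 10 have a feature of their own name among 48733 named genes. *Ctsd* has none, because the feature that covers it carries the name of its neighbour *Ifitm10*. All libraries came from mice of the inbred Collaborative Cross strain CC016/GeniUnc, whose age and sex were not given in the sources used here. Of the libraries, 3 are labelled bone (cortical bone of the femur with its marrow spun out) and 3 are labelled osteoblasts. The osteoblasts were grown from adherent marrow cells and kept for 8 days in osteogenic medium, which the bone did not receive. It held dexamethasone at 10 nM, ascorbic acid at 50 µg/ml and beta-glycerophosphate at 10 mM. Adherent marrow cells are a mixture that can hold macrophages as well as stromal cells.

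Lysosomes are acidic organelles in which proteins are broken down, and cathepsins are their main proteases. Most cathepsins are made as inactive precursors, travel to the lysosome on mannose-6-phosphate receptors and are activated there by cleavage at low pH. They are abundant in macrophages and other phagocytes, and in bone *Ctsk*, a relative that is not among the 10 genes, is the collagen-degrading protease of osteoclasts. The 10 genes cover 4 kinds of protease. *Ctsb*, *Ctsc*, *Ctsh*, *Ctsl*, *Ctso*, *Ctss* and *Ctsz* are papain-like cysteine proteases, *Ctsd* is an aspartic protease, *Ctsa* is a serine carboxypeptidase, and *Lgmn* is an asparagine-specific cysteine protease that also activates other cathepsins.

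The labels did not separate the libraries by the blood they held. *Hbb-bt*, an adult beta-globin gene of red cells, was above 1000 FPKM (fragments per kilobase of transcript, scaled to the aligned fragments of the library) in 3 libraries, with 34838 in bone replicate 3, 34268 in osteoblasts replicate 2 and 48650 in osteoblasts replicate 3. The remaining libraries, bone replicates 1 and 2 and osteoblasts replicate 1, had 3.43 to 7.05 FPKM of it. The first 3 are called hemoglobin-rich and the other 3 hemoglobin-poor below. These names describe the libraries and are not groups of the study. Transcripts of blood in 2 libraries labelled as cultured cells, and their near absence from 2 libraries labelled bone, go against the labels. Whether labels were exchanged was not tested. The labels were kept as deposited, and each difference between bone and osteoblasts given here is one between libraries that carry those labels. *Cd79a* and *Cd79b*, which encode the signalling chains of the B-cell receptor, were listed at 0 in the 3 hemoglobin-poor libraries. In the hemoglobin-rich ones, among them 2 that are labelled as cultured osteoblasts, *Cd79a* measured 24.8 to 27.5 FPKM and *Cd79b* 50.7 to 60.0 FPKM. The summed FPKM of 7 osteoblast markers, led by the type I collagen genes *Col1a1* and *Col1a2*, overlapped between the labels, with 5258 to 8488 in bone and 5566 to 7973 in osteoblasts. With FPKM scaled to the sum over named genes, the sum of this list was 9274 to 13289 in the hemoglobin-poor libraries and 4204 to 4900 in the hemoglobin-rich ones. On that scale 5 of the 7 markers were lower in all hemoglobin-rich libraries, beside 48.6% of all genes tested, and 1 was higher, beside 21.4%. In FPKM, single markers of this list differed between the hemoglobin classes. *Ibsp* (43.1 to 91.3 against 986 to 1278 FPKM) and *Alpl* were lower in all hemoglobin-rich libraries, beside 16.9% of all genes tested. *Bglap2* (1641 to 1959 against 264 to 513 FPKM) was higher in all of them, beside 38.4% of all genes tested. Features without a name took 71.5% of the FPKM in bone replicate 2 and 65.0% in osteoblasts replicate 1, against 27.4 to 30.7% elsewhere, and FPKM is relative to all aligned fragments, those included. Coverage implied 2.03 to 3.39 Gb of aligned bases per library, at which a transcript of 1 kb with 3 read pairs has 0.133 to 0.221 FPKM. This floor covers counting error only. RNA of whole samples cannot tell fewer cells of a type from less RNA per cell.

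To show what the start regions of these genes hold, promoters of 250 bases before and 50 after the transcription start (RefSeq, GRCm38.p6) were searched on both strands for 4 short motifs. Promoters were matched for 8 of the 10 genes, 10 promoters in all, since *Ctsa* and *Lgmn* have 2 starts each. *Ctsb* and *Ctsh* had no entry. CACGTG is the core of the sites that TFEB and its relatives, transcription factors of lysosomal genes, bind. TCACGTGA contains it and is the longer form. The core was in 4 of the 10 promoters (*Ctsa*, *Ctsd*, *Ctsl* and *Lgmn*), against 7.15% of all 32851 promoters, and the longer form in 2 of the 10, against 0.974%. GAGGAAGT, a form of the site of the myeloid factor PU.1, was in 2 of the 10 (*Ctsc* and *Ctss*), against 3.20% of all promoters. TATAAA was in 2 of the 10 (*Ctss* and *Lgmn*), against 13.6%. The windows below carry the motif in capitals with 12 bases on either side, and GAGGAAGT stands on the opposite strand, as ACTTCCTC. Not every match is shown. The same *Ctsa* promoter holds another TCACGTGA that begins 4 bases after its start, and the *Ctsd* promoter another CACGTG 245 bases before its start. The matches to TATAAA are not shown either. No link between a motif and the level of a gene was tested. *Ctso* and *Ctsz* had none of the 4 motifs, and *Ctsd* has no value of its own.
*Ctsa*, 13 bases before its downstream start, chr2:164833748-164833779, plus strand: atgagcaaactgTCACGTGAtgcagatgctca
*Ctsd*, 99 bases before the start, chr7:142387907-142387938, minus strand: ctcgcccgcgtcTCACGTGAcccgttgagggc
*Lgmn*, 49 bases before its downstream start, chr12:102439124-102439153, minus strand: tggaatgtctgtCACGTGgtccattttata
*Ctsl*, 236 bases before the start, chr13:64370739-64370768, minus strand: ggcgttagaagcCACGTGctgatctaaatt
*Ctss*, 2 bases before the start, chr3:95526772-95526803, plus strand: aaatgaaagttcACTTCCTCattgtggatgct
*Ctsc*, 151 bases before the start, chr7:88277922-88277953, plus strand: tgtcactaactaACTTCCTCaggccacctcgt

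A match of letters does not show that a factor binds there, and no binding was measured in these samples. The start used for *Ctsl* is also a downstream one, since its window lies inside the RefSeq gene, which begins at 64370772 on the minus strand.

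*Ctsb*, an abundant endopeptidase of lysosomes, was the highest of the 9 genes in every library. Its feature lies on Chr. 14 from 63122462 to 63174312 (GRCm38) and runs past the RefSeq end of the gene at 63145923 into *Fdft1* on the other strand. Bone replicates 1 to 3 had 993, 496 and 171 FPKM of it, and osteoblasts replicates 1 to 3 had 503, 198 and 179 FPKM. The label means were 553 ± 414 FPKM (SD, n = 3) in bone and 293 ± 182 FPKM (SD, n = 3) in osteoblasts, and the ranges overlapped. The lowest hemoglobin-poor library was 2.51 times the highest hemoglobin-rich one. *Ctsb* stood above 97.7 to 99.7% of the genes that reached 1 FPKM in the same library.

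*Ctss* (Chr. 3, 95526786 to 95556403) encodes an elastin-degrading protease that also trims the invariant chain of MHC class II in antigen-presenting cells. It varied most, by 15.7 times between its extreme libraries. The bone libraries, in the order of their numbers, held 654, 404 and 41.5 FPKM, and the osteoblast libraries 292, 72.4 and 51.1 FPKM. Means of 366 ± 308 and 138 ± 133 FPKM (SD, n = 3) for bone and osteoblasts hid this, because each label held libraries on both sides of a wide gap. The lowest hemoglobin-poor value of *Ctss* was 4.03 times the highest hemoglobin-rich value.

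*Lgmn* (Chr. 12, 102394084 to 102439813) and *Ctsl* (Chr. 13, 64359337 to 64370890), a broad endopeptidase, had the next wide gaps. *Lgmn* measured 317, 179 and 44.3 FPKM in the bone libraries and 176, 52.4 and 45.2 FPKM in the osteoblast libraries, in the order of their numbers. *Ctsl* measured 188, 81.0 and 21.0 FPKM in bone and 106, 24.1 and 25.0 FPKM in osteoblasts. In both genes bone replicate 3 lay with osteoblasts replicates 2 and 3, while osteoblasts replicate 1 lay near bone replicate 2. The gap between the hemoglobin-poor and the hemoglobin-rich values was 3.35 times for *Lgmn* and 3.24 times for *Ctsl*. Label means were 180 ± 137 against 91.1 ± 73.4 FPKM for *Lgmn* and 96.6 ± 84.5 against 51.8 ± 47.2 FPKM for *Ctsl* (SD, n = 3, bone first).

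*Ctsc* (Chr. 7, 88278085 to 88326297) encodes the dipeptidyl peptidase that activates the granule serine proteases of neutrophils and mast cells. Its FPKM was 61.5, 29.3 and 8.65 in bone and 27.3, 15.1 and 12.8 in osteoblasts, again in the order of the numbers. *Ctsg*, a neutrophil serine protease that *Ctsc* activates, went the other way. It was listed at 0 in the 3 hemoglobin-poor libraries and measured 98.0 FPKM in bone replicate 3, 139 in osteoblasts replicate 2 and 99.5 in osteoblasts replicate 3. *Ctso* (Chr. 3, 81932601 to 81956725), a little-studied cysteine protease, was the lowest of the 9 genes, with 8.72, 5.61 and 1.84 FPKM in bone and 4.67, 2.71 and 2.72 FPKM in osteoblasts. Even its lowest value, at a mean coverage of 2.19 reads per base, lay above the floor of every library.

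The 3 remaining genes varied least, by 2.65 to 3.05 times over the 6 libraries. *Ctsa* (Chr. 2, 164832873 to 164841032), the carboxypeptidase that stabilizes lysosomal beta-galactosidase and neuraminidase, measured 209, 97.9 and 73.7 FPKM in bone and 122, 82.7 and 68.7 FPKM in osteoblasts. *Ctsz* (Chr. 2, 174427493 to 174439039), a carboxypeptidase, measured 241, 119 and 87.9 FPKM in bone and 165, 115 and 87.0 FPKM in osteoblasts. *Ctsh* (Chr. 9, 90054152 to 90076089), an aminopeptidase, measured 125, 47.3 and 48.9 FPKM in bone and 81.4, 48.7 and 49.2 FPKM in osteoblasts. Bone replicate 2 was therefore the lowest library for *Ctsh*, and for *Ctsz* it exceeded osteoblasts replicate 2 by 1.04 times. It is also the library with the most FPKM on unnamed features. With FPKM scaled to the sum over named genes, *Ctsh* was 86.4 in bone replicate 2 and 36.3 to 38.9 in the hemoglobin-rich libraries. The kit as named in the labels does not mark strand, so reads where *Ctsa* overlaps *Neurl2* and *Pltp*, where *Ctsz* meets *Nelfcd* and where *Ctsb* overlaps *Fdft1* cannot be assigned with certainty.

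**Figure D1:**
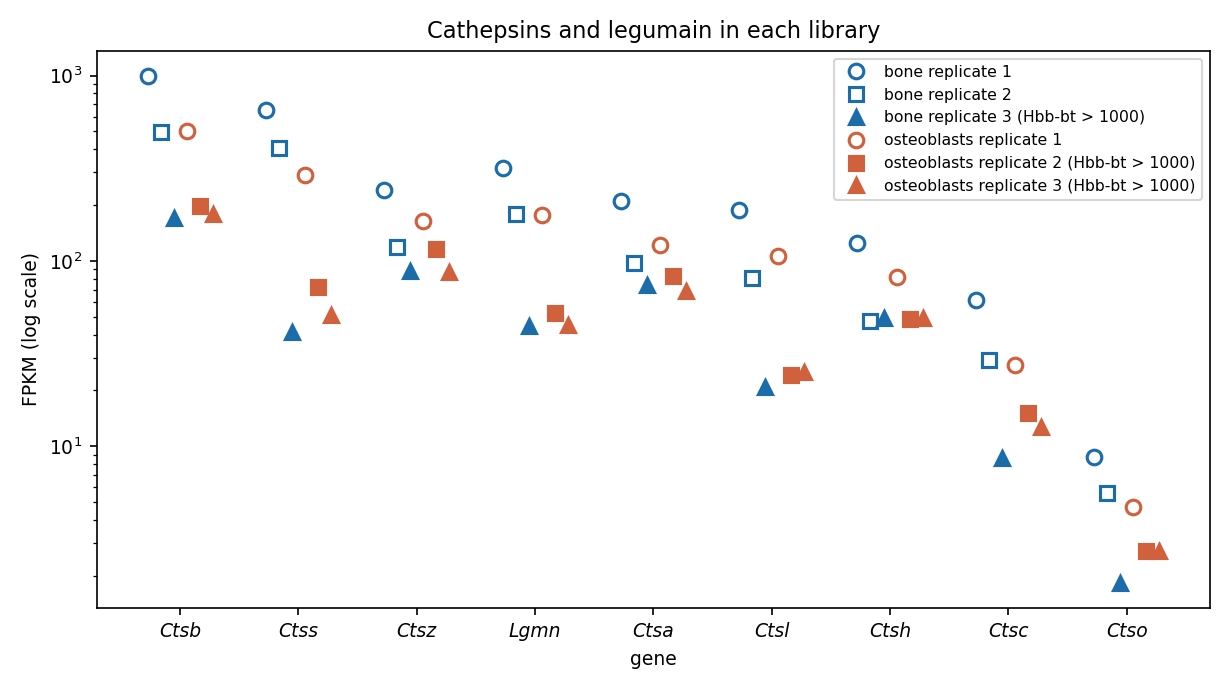
FPKM (log axis) of the 9 genes with a feature of their own, 1 point per library, blue for the label bone and orange for osteoblasts, with filled points for libraries above 1000 FPKM of *Hbb-bt*. Open points lie above filled points for 8 of the genes and overlap them for *Ctsh*, while blue and orange points overlap for all 9.

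*Ctsd*, the main aspartic protease of lysosomes, lies on Chr. 7 from 142375910 to 142387827 (RefSeq, GRCm38.p6). It falls inside a feature from 142325837 to 142388038 named *Ifitm10*, after the neighbouring gene of an interferon-induced transmembrane family. The whole feature had 2587, 1505 and 487 FPKM in bone and 1179, 521 and 473 FPKM in osteoblasts. Reads of *Ctsd* and *Ifitm10* cannot be told apart in it, so no value is given for *Ctsd* itself. The merged feature was 2.34 to 3.03 times as high as *Ctsb* in all 6 libraries. Its own ratio between the lowest hemoglobin-poor and the highest hemoglobin-rich library was 2.26.

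To ask whether the labels bone and osteoblasts differ, limma was fitted to log2(FPKM + 1) of 12112 genes with a mean of at least 1 FPKM. It called 0 of the 9 genes, and 0.0% of all genes, at a Benjamini-Hochberg adjusted p under 0.05, while 17 of all genes had an unadjusted p under 0.05. All 9 estimates were lower in osteoblasts, with a median log2 difference of -0.52 against 0.12 over all genes tested. The largest was that of *Ctss*, at -1.11 (SE 1.08, limma adjusted p = 0.999). *Lgmn* followed at -0.86 (SE 0.84) and *Ctsl* at -0.76 (SE 0.88), and the smallest was that of *Ctsh*, at -0.19 (SE 0.57). None of the 9 genes had its 3 values under one label all above those under the other, and 0.916% of all genes did. Without bone replicate 3, the values of 4 genes (*Ctsc*, *Ctso*, *Ctss* and *Lgmn*) were all lower in osteoblasts than in bone, as were those of 7.47% of all genes. In that fit *Ctss* differed by -2.31 (SE 0.80, limma adjusted p = 0.166, which is the lowest for any of the 9 genes over all alternatives). Without bone replicate 1 the differences shrank, to -0.34 (SE 1.24) for *Ctss*, -0.25 (SE 0.90) for *Lgmn* and -0.04 (SE 0.93) for *Ctsl*, and the median over the 9 genes was -0.02 against 0.27 over all genes tested.

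The label estimates were also taken between libraries of like hemoglobin. With the class of *Hbb-bt* as a second term, *Ctss* differed by -0.14 (SE 0.49) and *Lgmn* by -0.15 (SE 0.48) on the log2 scale. The median over the 9 genes was then -0.06 against -0.02 over all genes tested, and 4 of the 9 estimates were positive. The class is itself drawn from these data, and 8 of the 9 genes were lower in all hemoglobin-rich libraries. The smaller estimates are therefore no test of whether bone and osteoblasts differ. Between osteoblasts replicate 1 and bone replicates 1 and 2, all hemoglobin-poor, *Ctss* differed by -0.82 (SE 1.67, limma adjusted p = 1). Between osteoblasts replicates 2 and 3 and bone replicate 3, all hemoglobin-rich, it differed by 0.54 (SE 0.24, limma adjusted p = 0.520). In each of these fits the label with a lone library is assumed to vary like the other.

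**Figure D2:**
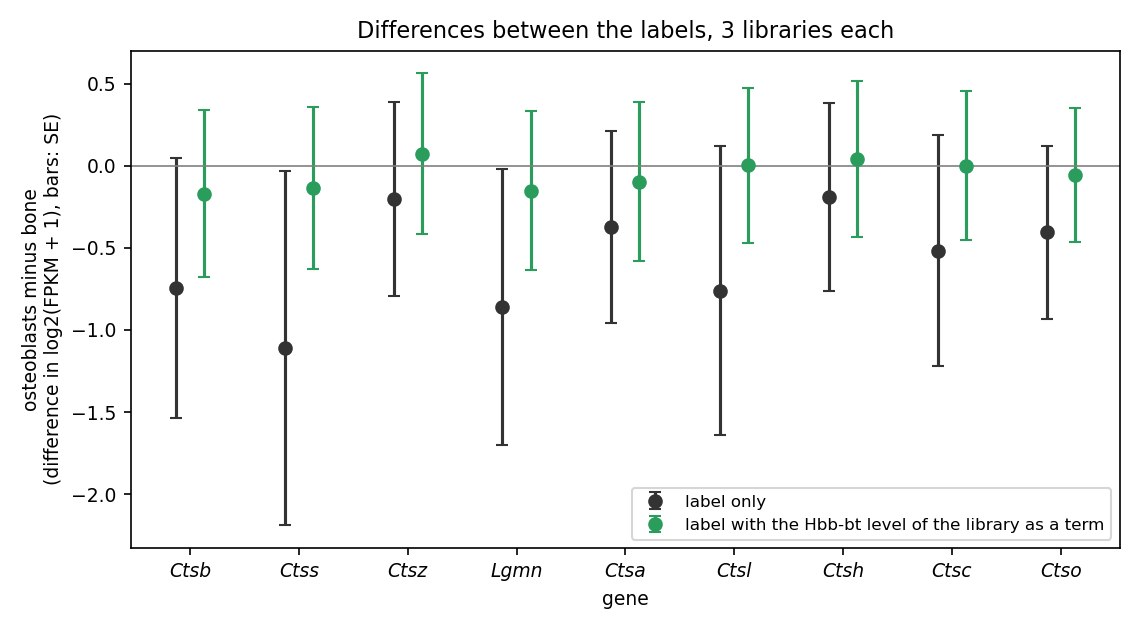
Difference between osteoblasts and bone in log2(FPKM + 1) for the 9 genes, with bars of 1 SE, from the fit on the label alone (black) and the fit with the *Hbb-bt* class of the library as a second term (green). The black estimates run from -0.19 to -1.11 and the green ones lie between -0.17 and 0.07.

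The libraries of high and low cathepsin were found under both labels. In 8 of the 9 genes, all but *Ctsh*, the 3 hemoglobin-rich libraries were all below the other 3, a pattern that 16.9% of all genes tested had. The opposite pattern had 0 of the 9 genes and 38.4% of all genes. After scaling to the FPKM on named genes, all 9 had the first pattern, but 48.6% of all genes then had it too and 21.4% had the opposite. On that scale the lowest hemoglobin-poor library exceeded the highest hemoglobin-rich one by 8.89 times for *Ctss*, 7.49 times for *Ctsl* and 7.40 times for *Lgmn*, and by 2.22 times for *Ctsh*. No test was made of this split, which is drawn from the data. Together the 9 genes took 0.470, 0.410 and 0.379% of the FPKM on named genes in bone replicates 1 and 2 and osteoblasts replicate 1. In bone replicate 3 and osteoblasts replicates 2 and 3 they took 0.0569, 0.0710 and 0.0633%.

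The make-up of these transcripts, which does not depend on how a library is scaled, also differed. *Ctsb* held a nearly fixed share of the summed FPKM of the 9 genes, between 32.4 and 35.5% in all 6 libraries. *Ctss* held 23.4, 27.7 and 19.8% in bone replicates 1 and 2 and osteoblasts replicate 1, but 8.33, 11.8 and 9.80% in bone replicate 3 and osteoblasts replicates 2 and 3. *Ctsz* made up 16.7 to 18.9% of the sum in the hemoglobin-rich libraries and 8.17 to 11.2% in the others. *Ctsa* did likewise, with 13.2 to 14.8% and 6.70 to 8.27%, and so did *Ctsh*, with 7.98 to 9.81% and 3.24 to 5.51%. The ratio of *Ctss* to *Ctsz* was therefore 2.71, 3.39 and 1.77 in the hemoglobin-poor libraries and 0.472, 0.629 and 0.587 in the hemoglobin-rich ones. *Lgmn* to *Ctsa* ran from 1.44 to 1.83 and from 0.601 to 0.657 in the same sets. Relative to *Ctsb*, *Ctsa*, *Ctsh* and *Ctsz* were higher and *Ctsl*, *Ctss* and *Lgmn* lower in all hemoglobin-rich libraries. How often the ratios of other genes to *Ctsb* separate the libraries in this way was not computed, so these ratios have no background beside them. The ratios of *Ctsz* to *Ctsa*, of *Ctsc* to *Ctsb* and of *Ctso* to *Ctsb* overlapped between the sets. *Ctsz* to *Ctsa* lay between 1.15 and 1.39 over the 6 libraries, and *Ctsc* to *Ctsb* between 0.0507 and 0.0762.

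**Figure D3:**
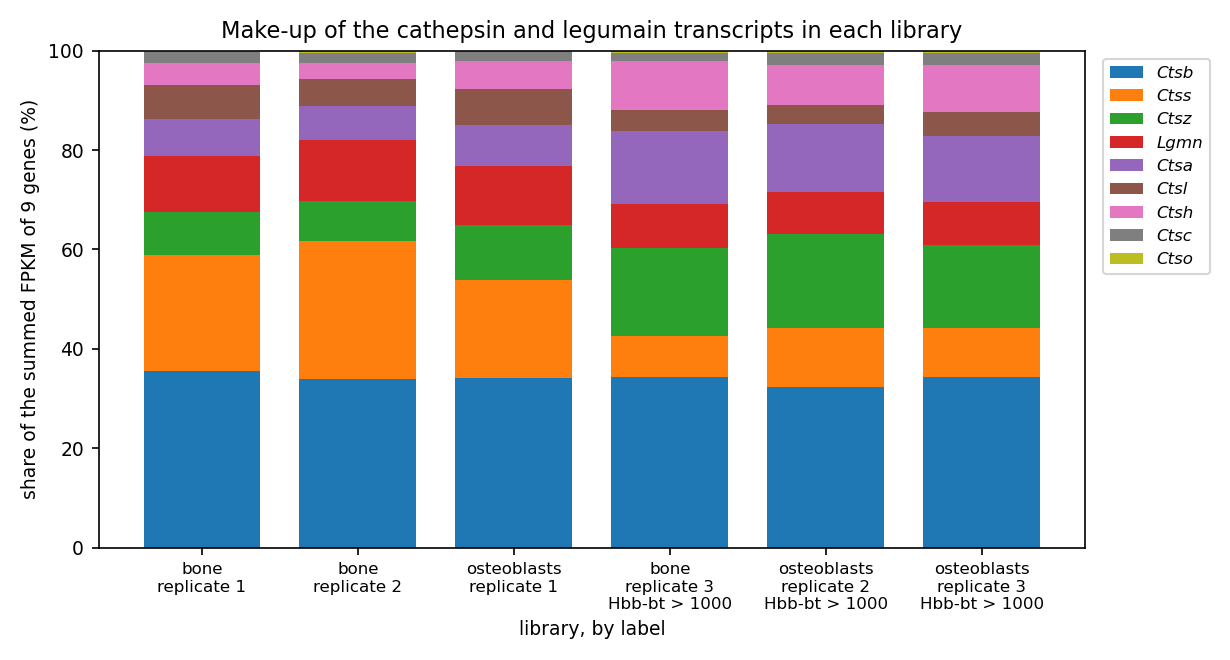
Share of each gene in the summed FPKM of the 9 genes (percent, stacked to 100) in each library, with the hemoglobin-poor libraries on the left and the hemoglobin-rich on the right. The *Ctsb* band stays at 32.4 to 35.5% throughout, and the *Ctss* band is wider on the left (19.8 to 27.7%) than on the right (8.33 to 11.8%).

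Genes that work with the cathepsins were looked at from fixed lists. Of 30 lysosomal hydrolases tested, limma called 0 between the labels (median log2 difference -0.30), and 15 were below in all hemoglobin-rich libraries, beside 16.9% of all genes. They included *Lipa*, the acid lipase of the lysosome, at 120, 117 and 88.4 FPKM in the hemoglobin-poor libraries and 15.6 to 23.2 FPKM in the hemoglobin-rich ones. *Hexa*, a subunit of beta-hexosaminidase and the highest hydrolase on the list, measured 138 to 260 and 105 to 118 FPKM in the same order. *Man2b1*, a lysosomal mannosidase, overlapped (57.7 to 125 and 66.1 to 68.4 FPKM), and *Arsb*, a sulfatase, was the only hydrolase of the 30 that was higher in all 3 hemoglobin-rich libraries. Of 15 membrane proteins and cofactors, 0 were called and 8 were below in the hemoglobin-rich libraries. *Lamp1*, a major protein of the lysosomal membrane, measured 273 to 528 FPKM in the hemoglobin-poor libraries and 104 to 125 FPKM in the others. *Psap*, the precursor of the saposins, overlapped between them. Subunits of the proton pump that acidifies lysosomes showed the pattern in 3 of 14, near the 16.9% of all genes, and the summed FPKM of this list was 421 to 836 in the hemoglobin-poor libraries and 486 to 541 in the hemoglobin-rich ones. Its highest subunit genes, *Atp6v0b* and *Atp6v0e*, overlapped between the sets. None of the 14 was called between the labels. After scaling to named genes the pattern was shown by 28 of the 30 hydrolases, 14 of the 15 membrane proteins and cofactors and 14 of the 14 pump subunits, beside the 48.6% of all genes, and *Arsb* overlapped.

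Receptors, adaptors and enzymes that deliver hydrolases to the lysosome were the next list. Limma called 0 of the 8 measured, and 2 of the 8 were below in all hemoglobin-rich libraries, *Igf2r* and *Scarb2*, a share near the 16.9% of all genes. *Igf2r*, the large mannose-6-phosphate receptor, measured 18.2 to 37.3 FPKM in the hemoglobin-poor libraries and 11.6 to 15.2 FPKM in the hemoglobin-rich ones. *M6pr*, the small one, overlapped, at 16.4 to 41.1 and 17.7 to 23.8 FPKM. So did the genes of the enzymes that make and uncover the mannose-6-phosphate tag (*Gnptab*, *Gnptg* and *Nagpa*) and of the sorting adaptors *Gga1* and *Gga2*, although 7 of the 8 were lower in all hemoglobin-rich libraries after scaling to named genes, beside 48.6% of all genes. Of the 4 TFEB family genes, 0 were called. *Tfeb* was higher in all hemoglobin-rich libraries (13.9 to 17.4 FPKM against 4.12 to 8.87 FPKM), beside 38.4% of all genes. *Mitf* was lower in all of them (1.97 to 3.71 FPKM against 6.07 to 8.83 FPKM), beside 16.9% of all genes. With 4 genes, both counts were near the background. *Tfe3* and *Tfec* overlapped in FPKM but were lower in all hemoglobin-rich libraries after scaling to named genes, beside 48.6% of all genes.

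The inhibitors did not all go the same way. *Cst3*, the secreted cystatin C that blocks cysteine cathepsins, measured 927, 451 and 458 FPKM in bone and 670, 514 and 398 FPKM in osteoblasts. It overlapped between the hemoglobin classes in FPKM and was lower in all hemoglobin-rich libraries after scaling to named genes. Set against *Ctsb*, it was 0.909 to 1.33 times as high in the hemoglobin-poor libraries and 2.22 to 2.68 times as high in the hemoglobin-rich ones. *Cstb*, the cystatin of the cytosol, and *Serpinb6a*, a serpin of the cytosol, were lower in all 3 hemoglobin-rich libraries. They are 2 of the 6 inhibitors tested, beside 16.9% of all genes. *Cst7*, *Stfa2l1* and *Serpinb1a*, which are expressed in leukocytes, were higher in all 3. They are 3 of the 6, beside 38.4% of all genes, a share not far from the background. *Serpinb1a* measured 34.4 to 46.1 FPKM in the hemoglobin-rich libraries and at most 0.512 FPKM elsewhere. Limma called 0 of the 6 inhibitors tested. Among other cathepsins *Ctsk* measured 137, 29.5 and 116 FPKM in bone and 65.0, 133 and 149 FPKM in osteoblasts, so that it overlapped between the labels and, on either scale, between the hemoglobin classes. Its ratio to *Ctsb* was 0.0595 to 0.138 in the hemoglobin-poor libraries and 0.671 to 0.830 in the hemoglobin-rich ones. *Ctsf* overlapped in FPKM and was lower in all hemoglobin-rich libraries after scaling, and *Ctsw*, a cathepsin of cytotoxic lymphocytes, was at most 0.234 FPKM in the hemoglobin-poor libraries and 4.47 to 5.50 FPKM in the others. None of these 4 other cathepsins with a named feature was called between the labels.

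Markers of several cell types moved with the cathepsins or against them. Of 11 macrophage markers tested, 9 were lower in all hemoglobin-rich libraries, beside 16.9% of all genes, and none was at 0 in any library. After scaling to named genes 11 of the 11 were lower, beside 48.6% of all genes. Their summed FPKM was 5863 to 10597 in the hemoglobin-poor libraries and 2042 to 2473 in the hemoglobin-rich ones. *Lyz2*, which encodes lysozyme, was the highest of them, with 3955 to 7332 FPKM in the hemoglobin-poor libraries and 1280 to 1596 FPKM in the hemoglobin-rich ones. *C1qa*, a subunit of complement C1q, measured 575 to 1156 and 173 to 241 FPKM in the same order. *Aif1* and *Tyrobp* overlapped in FPKM. Of 7 neutrophil markers all were higher in the hemoglobin-rich libraries, beside 38.4% of all genes. Their sums were 14246 to 17226 FPKM against 0.430 to 5.51 FPKM, and *S100a9* was the most abundant of them in each hemoglobin-rich library. Osteoclast markers summed to 712 to 810 FPKM in the hemoglobin-rich libraries and to 50.0 to 327 FPKM in the others. Of the 6 tested, 3 (*Acp5*, *Mmp9* and *Oscar*) were higher in all 3 hemoglobin-rich libraries, beside 38.4% of all genes, so in FPKM this count was near the background. After scaling to named genes the same 3 were higher in all 3, beside 21.4% of all genes. *Atp6v0d2* overlapped in FPKM and was lower in all 3 after scaling to named genes. The 5 stromal markers summed to 251 to 324 FPKM in the hemoglobin-rich libraries and 715 to 1055 FPKM in the hemoglobin-poor ones, most of it from *Fn1* and *Postn*. This list divided, since *Fn1*, *Postn* and *Pdgfrb* were lower in all hemoglobin-rich libraries, beside 16.9% of all genes. *Dcn* (81.1 to 88.6 against 7.81 to 15.9 FPKM) and *Lum* (16.5 to 17.4 against 1.18 to 5.55 FPKM) were higher in all of them, beside 38.4%. Of 3 osteocyte markers tested, *Sost* was higher in all hemoglobin-rich libraries, beside 38.4% of all genes. *Dmp1* was lower in all of them, beside 16.9% of all genes, so with 3 markers both counts were near the background. *Acta1*, *Tnnt3* and the other 2 skeletal muscle markers were also higher in all hemoglobin-rich libraries, beside 38.4% of all genes. Their sums were 235 to 983 FPKM against 1.60 to 3.82 FPKM. *Cd68* is on the macrophage and the lysosomal membrane list, *Ctsk* is on the osteoclast list too, and *Atp6v0d2* is on the osteoclast and the proton pump list. The part of any of these cell types in the cathepsin levels was not tested.

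**Figure D4:**
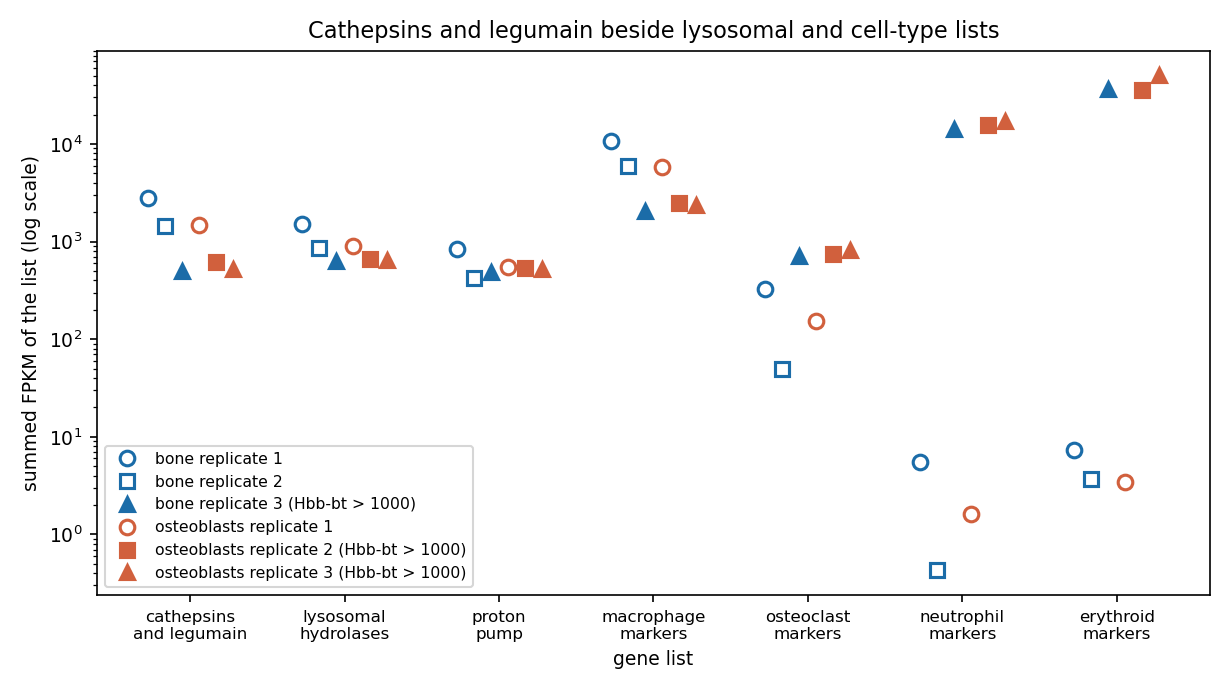
Summed FPKM (log axis) per library of the 9 genes, of 30 lysosomal hydrolases, of 14 proton pump subunits and of macrophage, osteoclast, neutrophil and erythroid markers, with symbols as in the plot of single genes. Macrophage markers and lysosomal hydrolases, like the cathepsins, have all open points above the filled ones. Macrophage markers have 5863 to 10597 FPKM for open and 2042 to 2473 FPKM for filled points. Hydrolases have 858 to 1498 and 638 to 661 FPKM in the same order. Osteoclast, neutrophil and erythroid markers have filled points on top, and open and filled points overlap for the proton pump.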

How the data were processed

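Total RNA of bone and of osteoblasts was sequenced by the authors in 3 libraries each. Their paired-end reads were mapped to the GRCm38 genome, and the processing notes name HISAT2 2.0.5, SAMtools 1.7 and StringTie 1.3.3. The labels name both RNeasy and mirVana kits for the RNA. The deposited tables give coverage (signal: mean reads per base), FPKM and TPM for 93288 to 93290 features, and no read counts. Coordinates are those of the deposited features, and RefSeq names and promoters are of GRCm38.p6.

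Rows of 1 name were summed. FPKM were tested as log2(FPKM + 1) with limma 3.58.1 in R 4.3.3 (trend, Benjamini-Hochberg adjustment over 12112 genes with a mean of at least 1 FPKM), after a test on simulated data. The simulated noise was smaller than the median residual SD of 0.59 in these data, so that test does not show the power here. The commonest quotient of coverage and FPKM in a table gave its depth. A library counted as hemoglobin-rich above 1000 FPKM of *Hbb-bt*. The design as fixed counted 10 genes, and sums and shares are over the 9 with a feature. Named are these genes, the tested other cathepsins, inhibitors, delivery and TFEB family genes, the highest genes of the other lists and the 3 genes of most similar pattern. Further list genes were chosen after their values were seen, and 1 list gene is not reported here. The genes, lists and splits were chosen with earlier results of these data known. The paper took femora and their marrow from 3 mice, so bone and osteoblast libraries may share animals. Nothing in the labels says that equal replicate numbers mark 1 mouse, and the spread between libraries may in part be technical. Plots used Python 3.11.15, pandas 2.3.3 and matplotlib 3.10.9.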

Additional observations from a re-analysis of the deposited data

How the results depend on the processing

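Limma called 0 of the 9 genes under every alternative run. Over all genes it called 0 as reported, 16 with the *Hbb-bt* class as a term, 8 without the libraries above 1000 FPKM of *Hbb-bt*, 1 without those at most 1000, and 0 to 300 when a library was left out (77 without bone replicate 3 and 300 without osteoblasts replicate 1). With the replicate number as a block it called 49, none of them among the 9 genes. Whether the numbers pair the libraries could not be told. The deviations of same-numbered libraries correlated at 0.84, -0.75 and 0.83 across genes. Differently numbered libraries of the same hemoglobin class correlated at 0.80 (bone replicate 2 with osteoblasts replicate 1) and 0.83 (bone replicate 3 with osteoblasts replicate 2). The sign followed the class, which hides whether libraries share a mouse. The number of the 9 genes whose labels do not overlap ranged from 0 to 4 when a library was left out. Of 170 log2 differences under alternatives, 144 kept their direction and 26 turned, none past the threshold. Those that turned without the hemoglobin-poor libraries were *Ctsa* (0.032), *Ctsb* (0.14), *Ctsc* (0.62), *Ctsh* (0.0021), *Ctsl* (0.22), *Ctso* (0.39), *Ctss* (0.54), *Ctsz* (0.19) and *Lgmn* (0.13), and without the hemoglobin-rich ones *Ctsh* (0.076). With the *Hbb-bt* class as a term they were *Ctsc* (0.00029), *Ctsh* (0.039), *Ctsl* (0.0019) and *Ctsz* (0.073). With that term and scaling to named genes, added after seeing the data, they were *Ctsa* (0.049), *Ctsc* (0.13), *Ctsh* (0.19), *Ctsl* (0.15), *Ctso* (0.041), *Ctss* (0.0070) and *Ctsz* (0.22). When a library was left out, 4 genes ranged across 0: *Ctsa* from -0.69 to 0.060, *Ctsc* from -1.24 to 0.11, *Ctsh* from -0.43 to 0.27 and *Ctsz* from -0.52 to 0.21. All 4 turned without bone replicate 1, and *Ctsz* (0.016) without osteoblasts replicate 3. The cause was not tested. Scaling to named genes moved the median log2 difference of all genes from 0.12 to -0.03. *Ctso* is left out by a filter at a mean of 5 FPKM.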

Other observations

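The profile of each gene over the 6 libraries, as log2(FPKM + 1) centred on its own mean, was compared with those of all 12112 genes by the mean absolute difference. *Ctsa* and *Ctsz* were the most similar among the 9 genes, at 0.08 on the log2 scale, and *Ctsh* and *Ctss* the least, at 1.15. The nearest genes of any kind were *Akr1a1* (0.04), *Crim1* (0.04) and *Ryk* (0.05) for *Ctsa*, and *Capn2* (0.05), *Fkbp9* (0.06) and *Amotl2* (0.07) for *Ctsb*. For *Ctsc* they were *Pros1* (0.07), *Tpm4* (0.09) and *Impad1* (0.10), for *Ctsh* *Fgfr2* (0.07), *Wdr45b* (0.08) and *Aen* (0.08), and for *Ctsl* *Grb14* (0.05), *Pawr* (0.06) and *Nrp1* (0.06). For *Ctso* they were *Rnf103* (0.04), *Sppl2a* (0.04) and *Gnpda2* (0.05), and for *Ctsz* *Ttl* (0.04), *Selenos* (0.05) and *Akr1a1* (0.05). *Ctss* had the most distant neighbours, *Pla2g7* (0.13), *Sh3bgrl* (0.15) and *Colec12* (0.16). The nearest to *Lgmn* were *Fam114a1* (0.05), *Tnfrsf11b* (0.07), which encodes osteoprotegerin, and *Lhfp* (0.07), the gene that the study is about. None of the 9 genes had another of the 9 among its 3 nearest. The libraries fall into separate sets, so no correlation is given.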
